A study of Mus musculus with 10 samples.

Results

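The genes described here are 6 transcription factor genes known as markers of position in the embryo, namely the paired-like homeobox genes Pitx1 and Pitx3, the ladybird homeobox gene Lbx1, and the T-box genes Tbx2, Tbx3, and Tbx4. They were chosen by name from families that pattern limbs and limb muscle, with earlier results of these data known, and they are 6 of the 16112 genes in the count tables. RNA-seq was carried out on 10 whole muscle samples of wild-type mice, 3 of the extensor digitorum longus (EDL, a fast muscle of the anterior lower leg), 3 of the psoas (a fast hip flexor attached to the lumbar spine), and 4 of the soleus (a slow muscle of the calf). The labels name the strain B6C3Fe a/a-Ttnmdm/J for every sample. The animals were homozygous wild-type offspring of a colony that carries the Ttnmdm mutation in the titin gene, were between 32 and 54 days old, and had been part of another experiment. Age was not balanced, with 32 days only in soleus replicate 3, 54 days only in replicate 2 of EDL and of psoas, and 42 or 44 days elsewhere. No fit had age as a covariate. The 10 libraries carry 7 animal codes, 3 of which occur in 2 libraries, so that not every library is a separate animal. The methods mention fewer mice than there are codes, and some codes may therefore belong to 1 animal. By the labels, 5 libraries came from males and 4 from females, and soleus replicate 3 has no sex given.

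As background, Pitx and Lbx proteins bind DNA through a homeodomain and T-box proteins through the T-box domain. In the embryo, Pitx1 and Tbx4 are expressed in the hindlimb bud and not in the forelimb bud, and Pitx1 acts upstream of Tbx4 in giving the hindlimb its identity. Lbx1 marks the muscle precursors that migrate from the somites into the limb buds, Pitx3 is switched on in differentiating muscle fibres, and Tbx2 and Tbx3 are closely related transcriptional repressors expressed along the margins of the limb bud. EDL and soleus are hindlimb muscles, whereas the psoas runs from the trunk to the femur. The comparisons below ask how the levels of these genes differ between adolescent and young adult muscles of different position and fibre type.

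Total counts per library ranged from 12737971 in soleus replicate 3 to 50431713 in psoas replicate 1. Levels are given as normalized CPM (counts scaled by library size, with TMM factors), on which scale the 3 counts that an observed 0 allows correspond to between 0.0565 in EDL replicate 2 and 0.239 in soleus replicate 3, covering counting error only. The fibre genes followed the labels, since the fast myosin gene Myh4 averaged 44000 normalized CPM in EDL, 53900 in psoas, and 1230 in soleus, and the slow myosin gene Myh7 averaged 51.5, 6.13, and 9820. Tendon markers stood apart in EDL, where the summed level of 7 markers was between 713 and 794 normalized CPM, compared with 31.4 to 81.6 in psoas and 84.4 to 486 in soleus. Quality trimming before alignment was applied to 4 libraries (EDL 1 and 2, psoas 1 and 2) and not to the other 6. In whole muscle RNA, fewer cells of a type and less RNA per cell cannot be told apart.

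In the GRCm38 assembly with GENCODE M21 annotation, Pitx1 (ENSMUSG00000021506) lies on the minus strand at chr13:55825051-55836192. Pitx3 (ENSMUSG00000025229) and Lbx1 (ENSMUSG00000025216) are both on the minus strand of chromosome 19, at chr19:46135685-46148326 and chr19:45232684-45235812, with 899873 bases between them. Tbx2 (ENSMUSG00000000093) and Tbx4 (ENSMUSG00000000094) are neighbours on the plus strand of chromosome 11, at chr11:85832551-85841948 and chr11:85886422-85916097, with 44474 bases between them. Tbx3 (ENSMUSG00000018604) is on the plus strand at chr5:119670669-119684724. The values are counts over whole genes, so they do not separate exons or transcripts. Some exon bases are shared with genes on the other strand, 165 bases of Pitx1 with Gm47071, 10 of Pitx3 with Elovl3, and 115 of Tbx3 with Tbx3os1, and 108 bases of Pitx1 lie in Gm28760 on the same strand. Reads in the stretches on the other strand cannot be assigned with certainty, because the strand setting of the counting is not given in the sources used here, and those in Gm28760 cannot be told apart by strand.

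Pitx3 and Tbx4 were the only genes of the 6 for which a promoter window was available. The 250 bases before their RefSeq transcription starts (GRCm38.p6) are shown here with matches to the searched motifs in capitals. Both genes had their highest mean level in the soleus and their lowest in EDL, as did Tbx3, which had no window. The Pitx3 window is chr19:46148326-46148575, read on the minus strand. The Tbx4 window is chr11:85896515-85896764 on the plus strand, and lies inside the gene as annotated by GENCODE, in an intron of the longer transcripts and directly before the start of a shorter one.
Pitx3: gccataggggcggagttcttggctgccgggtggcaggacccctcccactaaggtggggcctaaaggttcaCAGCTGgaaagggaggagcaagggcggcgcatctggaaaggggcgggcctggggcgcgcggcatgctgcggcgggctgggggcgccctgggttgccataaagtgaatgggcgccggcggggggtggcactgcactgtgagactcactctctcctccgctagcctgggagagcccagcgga
Tbx4: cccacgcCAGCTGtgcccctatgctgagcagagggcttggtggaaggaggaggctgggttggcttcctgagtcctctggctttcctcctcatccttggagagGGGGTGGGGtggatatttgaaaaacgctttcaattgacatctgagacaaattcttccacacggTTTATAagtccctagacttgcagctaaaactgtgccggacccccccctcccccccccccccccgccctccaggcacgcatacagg
Both windows hold the E-box CAGCTG, a sequence of the kind bound by myogenic bHLH factors, beginning 180 bases before the start in Pitx3 and 243 bases before it in Tbx4. The E-box was present in 13.0% of 32851 mouse promoter windows of the same length, with both strands searched. The Tbx4 window also holds GGGGTGGGG, the reverse complement of the CACC box CCCCACCCC (in 5.61% of windows), and TTTATA, the reverse complement of TATAAA (in 12.4%). No match was found in either window to the Pitx site TAATCC (in 6.25% of windows), the T-box site AGGTGTGA (1.12%), its overlapping core GGTGTG (16.3%), or the homeodomain core TAATTA (4.84%). GC content was 68.8% in the Pitx3 window and 58.4% in the Tbx4 window, compared with a median of 52.4% over all windows. These matches describe the letters of the windows only.

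Tbx3 was higher in psoas and soleus than in EDL, and Pitx3 was higher in soleus than in EDL. In psoas vs EDL, 1 of the 6 genes (Tbx3) passed both thresholds in edgeR's quasi-likelihood test (adjusted p below 0.01 and more than a 2-fold difference), and it was higher in psoas, compared with 2.11% of all 16112 genes in either direction, 0.54% higher and 1.57% lower in psoas. In soleus vs EDL, 2 of the 6 (Pitx3 and Tbx3) passed and were higher in soleus, compared with 5.77% of all genes in either direction, 3.59% higher and 2.18% lower in soleus. In soleus vs psoas, 0 of the 6 passed in edgeR, compared with 5.69% of all genes, 2.99% higher and 2.71% lower in soleus. In this last comparison, 3 of the 6 had an unadjusted p under 0.05, compared with 28.4% of all genes, and DESeq2's Wald test called 1, Pitx1. An unadjusted p under 0.05 was reached by 4 of the 6 in psoas vs EDL, compared with 29.0% of all genes, and by 4 in soleus vs EDL, compared with 35.0%. At a looser adjusted p of 0.05 with the same fold, 7.65%, 11.5%, and 9.7% of all genes would pass in psoas vs EDL, soleus vs EDL, and soleus vs psoas, and among the 6 these would add Tbx4 in soleus vs EDL and Pitx1 in soleus vs psoas. The median log2 fold change of the 6 genes was 1.18 in psoas vs EDL, 1.15 in soleus vs EDL, and 0.47 in soleus vs psoas, compared with 0.01, -0.05, and 0.02 over all genes. The 3 comparisons share libraries with each other in pairs.

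**Figure D1:**
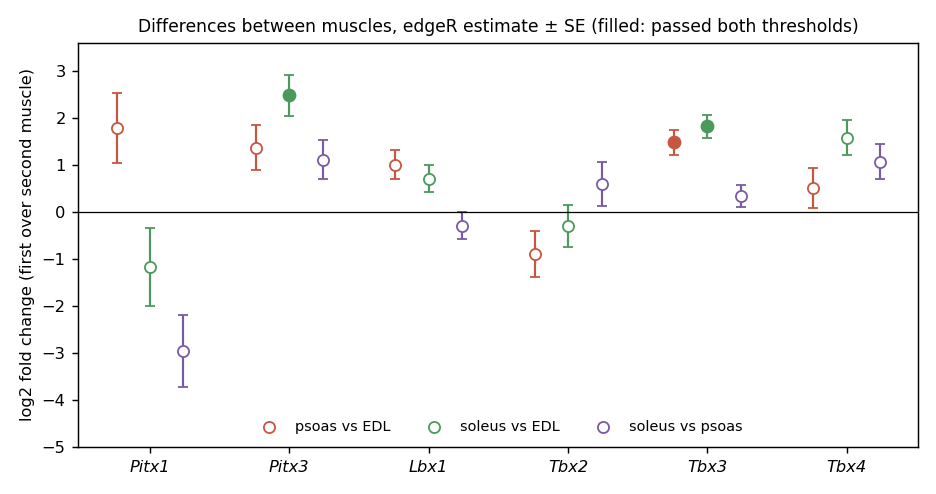
Log2 fold changes of the 6 genes in the 3 comparisons between muscles, estimated with edgeR, with bars of 1 standard error; filled points passed both thresholds. The filled points are Tbx3 in psoas vs EDL (1.48) and in soleus vs EDL (1.82), and Pitx3 in soleus vs EDL (2.48), and Pitx1 has the widest bars.

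Among the homeobox genes, Pitx1, the hindlimb identity factor, was the least expressed, with at least 10 reads in only 3 of the 10 libraries (EDL replicate 2 and psoas replicates 1 and 2). Its counts were 5, 11, and 8 in EDL, 41, 14, and 6 in psoas, and 0, 7, 0, and 2 in soleus, in the order of the replicate numbers. In normalized CPM, these were 0.117, 0.207, and 0.439 in EDL, 1.08, 0.888, and 0.425 in psoas, and 0, 0.209, 0, and 0.106 in soleus. Psoas thus had the higher libraries, the lowest of them overlapped with EDL replicate 3, and every soleus library was below every psoas library. Pooled over libraries, 24 reads in EDL, 61 in psoas, and 9 in soleus gave 0.21 (exact Poisson 95% interval 0.135 to 0.313), 0.9 (0.688 to 1.16), and 0.113 (0.0517 to 0.215) normalized CPM, intervals that cover counting error only.

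Pitx1 did not pass the thresholds in any of the 3 comparisons. The log2 fold change was -2.96 ± 0.77 (SE) in soleus vs psoas with an adjusted p of 0.0254, 1.78 ± 0.74 in psoas vs EDL with an adjusted p of 0.134, and -1.17 ± 0.83 in soleus vs EDL with an adjusted p of 0.339. The difference between soleus and psoas passed with DESeq2 (adjusted p = 0.00628) and with the animal as a random effect in limma-voom (adjusted p = 0.00905), and its adjusted p ranged from 0.00628 to 0.474 over all alternatives tried. Without soleus replicate 2, which holds 7 of the 9 soleus reads, the log2 fold change was -4.13 in soleus vs psoas (adjusted p = 0.0213) and -2.34 in soleus vs EDL (adjusted p = 0.148). Within the trimmed libraries, psoas exceeded EDL by 2.57 (adjusted p = 0.0297), whereas the 1 untrimmed library of each muscle differed by -0.08. Of the genes whose bodies lie within 50 kb of Pitx1, only Pcbd2 was measured, and it was not called in any comparison.

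Pitx3, a factor of muscle fibre differentiation that is otherwise known from the lens and midbrain dopaminergic neurons, had a graded mean level, lowest in EDL and highest in soleus. It measured 0.397, 0.17, and 0.165 normalized CPM in EDL, 0.475, 0.697, and 0.85 in psoas, and 1.16, 1.59, 1.04, and 1.85 in soleus. The 3 muscles did not overlap in any pair. The means were 0.244 ± 0.133 (SD, n = 3) in EDL, 0.674 ± 0.188 (SD, n = 3) in psoas, and 1.41 ± 0.375 (SD, n = 4) in soleus. Soleus exceeded EDL by 2.48 ± 0.44 (SE) on the log2 scale with an adjusted p of 0.00357. The 2 smaller steps did not pass, with 1.37 ± 0.47 and an adjusted p of 0.0821 for psoas vs EDL, and 1.11 ± 0.42 and an adjusted p of 0.103 for soleus vs psoas. The count was 3 in EDL replicate 3 and 9 in EDL replicate 2, so the EDL level rests on few reads. The call in soleus vs EDL did not pass without EDL replicate 2 (adjusted p = 0.0257), without soleus replicate 2 (0.0115), or without soleus replicate 4 (0.0127). It also did not pass with read trimming as a covariate (0.0383) or thinning to the depth of the shallowest library (0.0221). With the replicate block, its adjusted p was 0.0223, but that block groups soleus libraries by numbers that were not taken to pair them. Among the untrimmed libraries, with 1 EDL library, the log2 fold change was 3.01 (adjusted p = 0.0936), and it was at least 2.23 under each alternative.

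Lbx1, the marker of migrating limb muscle precursors, was the most abundant of the 6 genes, with at least 143 reads in every library. It measured 4.62, 7.2, and 9.72 normalized CPM in EDL, 16.8, 15.7, and 10.1 in psoas, and 14.8, 12.0, 12.4, and 7.55 in soleus. Every psoas library was above every EDL library, and the soleus libraries overlapped with both. The means were 7.18 ± 2.55 (SD, n = 3) in EDL, 14.2 ± 3.57 (SD, n = 3) in psoas, and 11.7 ± 3.02 (SD, n = 4) in soleus. None of its differences passed, the log2 fold change being 1.0 ± 0.31 (SE) in psoas vs EDL (adjusted p = 0.0589), 0.71 ± 0.29 in soleus vs EDL (adjusted p = 0.108), and -0.29 ± 0.29 in soleus vs psoas (adjusted p = 0.562). Psoas exceeded EDL by 1.44 (adjusted p = 0.0299) within the trimmed libraries and by 0.02 between the 1 untrimmed library of each muscle.

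Of the T-box repressors, Tbx3 was low in EDL and higher in both other muscles. It measured 1.82, 1.53, and 1.21 normalized CPM in EDL, 4.8, 3.36, and 4.67 in psoas, and 5.13, 6.37, 4.07, and 6.07 in soleus. No EDL library reached the level of any psoas or soleus library, and psoas and soleus overlapped. The means were 1.52 ± 0.307 (SD, n = 3) in EDL, 4.28 ± 0.798 (SD, n = 3) in psoas, and 5.41 ± 1.04 (SD, n = 4) in soleus. Tbx3 was 2.79-fold higher in psoas than in EDL (log2 fold change 1.48 ± 0.26, adjusted p = 0.00749) and 3.53-fold higher in soleus than in EDL (1.82 ± 0.25, adjusted p = 0.000829). Between soleus and psoas, the log2 fold change was 0.34 ± 0.24 with an adjusted p of 0.388.

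The difference in Tbx3 between soleus and EDL passed under 23 of 24 alternatives, the exception being the untrimmed libraries alone (2.12, adjusted p = 0.0431), among which EDL has 1 library. The difference between psoas and EDL kept its direction under all 26 alternatives, with log2 fold changes between 1.29 and 1.91, but passed under only 12 of them. It was lost when any 1 of EDL replicates 1 and 2, psoas replicates 1, 2, and 3, and soleus replicates 1, 2, and 4 was left out, with adjusted p between 0.01 and 0.0351. With the replicate numbers of EDL and psoas as a block, it was 1.46 with an adjusted p of 0.022 in a fit of these muscles alone. It was 1.29 (adjusted p = 0.0456) within the trimmed libraries and 1.91 (adjusted p = 0.382) between the 1 untrimmed library of each muscle, a fit with too few libraries for its adjusted p to bear on the call.

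Tbx2, the closest paralog of Tbx3, showed no such order. It measured 1.33, 0.905, and 1.48 normalized CPM in EDL, 0.95, 0.571, and 0.354 in psoas, and 0.684, 1.76, 0.638, and 0.739 in soleus. The muscles overlapped in every pair, and soleus replicate 2 was above all other libraries. The means were 1.24 ± 0.3 (SD, n = 3) in EDL, 0.625 ± 0.302 (SD, n = 3) in psoas, and 0.956 ± 0.54 (SD, n = 4) in soleus. The log2 fold change was -0.9 ± 0.49 (SE) in psoas vs EDL (adjusted p = 0.247), -0.3 ± 0.44 in soleus vs EDL (adjusted p = 0.657), and 0.6 ± 0.47 in soleus vs psoas (adjusted p = 0.452). Soleus replicate 2 also had the highest soleus values of the tendon markers (486 summed normalized CPM) and of the smooth muscle and pericyte markers (570). Over the muscles, the 7 smooth muscle and pericyte markers summed to between 425 and 598 normalized CPM in EDL, 332 and 403 in psoas, and 371 and 570 in soleus, with 0 of 7 called in any comparison by edgeR. Most of the sum came from Rgs5, which averaged 439 in EDL, 327 in psoas, and 398 in soleus. Myh11 also had its highest mean in EDL, whereas Tagln, Cnn1, and Notch3 had theirs in soleus, and Acta2 and Kcnj8 were nearly equal in EDL and soleus. Of the 7 smooth muscle and pericyte markers, 2 had an unadjusted p under 0.05 in psoas vs EDL, 0 in soleus vs EDL, and 3 in soleus vs psoas. Over all genes, 29.0%, 35.0%, and 28.4% had such a p, and 2.11%, 5.77%, and 5.69% were called. Of the 7 tendon markers, 7 were called lower in psoas than in EDL and 5 higher in soleus than in psoas, compared with 1.57% and 2.99% of all genes. None of the measured markers was at 0 in every library of a muscle, and the part of these cells in the Tbx2 level was not tested.

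Tbx4, the hindlimb T-box gene beside Tbx2, followed the order of Pitx3 and Tbx3 and not that of its neighbour. It measured 0.374, 0.358, and 0.494 normalized CPM in EDL, 0.422, 0.571, and 0.779 in psoas, and 1.03, 1.62, 0.797, and 1.32 in soleus. Every soleus library was above every EDL and psoas library, the lowest soleus library exceeding the highest psoas library only narrowly, while EDL and psoas overlapped. The means were 0.409 ± 0.0746 (SD, n = 3) in EDL, 0.591 ± 0.179 (SD, n = 3) in psoas, and 1.19 ± 0.355 (SD, n = 4) in soleus. Soleus exceeded EDL by 1.58 ± 0.38 (SE) on the log2 scale with an adjusted p of 0.0158, just short of the threshold. It was 1.07 ± 0.38 in soleus vs psoas (adjusted p = 0.0893) and 0.51 ± 0.42 in psoas vs EDL (adjusted p = 0.452). The difference between soleus and EDL passed with DESeq2 (adjusted p = 0.00413), limma-voom (0.00896), and limma-voom with the animal as a random effect (0.0061), and its adjusted p ranged from 0.00413 to 0.425 over the alternatives. Across the 10 libraries, the log2 levels of Tbx2 and Tbx4 had a Pearson r of -0.0693 and a Spearman rho of -0.115, given as a description.

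**Figure D2:**
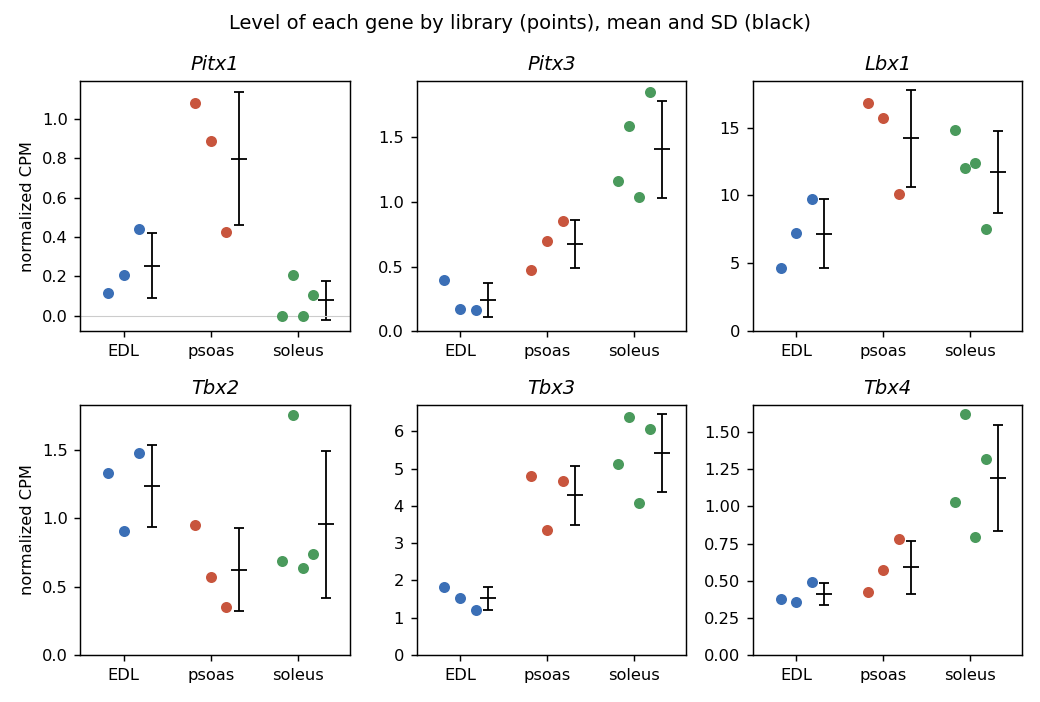
Normalized CPM of each gene in each library (points), with the mean and SD per muscle in black (n = 3 EDL, 3 psoas, 4 soleus); each panel has its own linear axis. Pitx3 and Tbx4 are highest in the 4 soleus libraries, Tbx3 is lowest in the 3 EDL libraries, Pitx1 is at 0 in 2 soleus libraries, and Tbx2 in soleus replicate 2 stands at 1.76.

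Counted by library, 3 of the 6 genes (Pitx3, Lbx1, and Tbx3) did not overlap between psoas and EDL and were higher in psoas, compared with 29.6% of all genes in either direction and 13.4% higher in psoas, 16.3% being lower. In soleus vs EDL, 3 genes (Pitx3, Tbx3, and Tbx4) did not overlap and were higher in soleus, compared with 29.5% of all genes in either direction and 15.2% higher in soleus, 14.3% being lower. In soleus vs psoas, Pitx3 and Tbx4 were higher and Pitx1 lower without overlap, compared with 25.8% of all genes in either direction, 13.9% higher and 11.9% lower in soleus. Among all genes of these muscles, lack of overlap is thus common and calls are less frequent. The 6 genes were chosen with earlier results of these data known, so their counts beside the shares of all genes are a description only.

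Levels of different genes were compared as FPKM, normalized CPM per kilobase of summed exon length. Lbx1 led in every muscle, its mean FPKM being 2.89 ± 1.03 (SD, n = 3) for EDL, 5.72 ± 1.44 (SD, n = 3) for psoas, and 4.71 ± 1.22 (SD, n = 4) for soleus. After Lbx1, the order of mean FPKM was Tbx2, Tbx3, Pitx3, Tbx4, and Pitx1 in EDL, from 0.342 down to 0.0958. In psoas it was Tbx3, Pitx3, Pitx1, Tbx4, and Tbx2, from 0.646 down to 0.172, and in soleus Pitx3, Tbx3, Tbx4, Tbx2, and Pitx1, from 0.923 down to 0.0296. Neighbours in these orders often differed by less than their SD, such as Pitx3 at 0.923 ± 0.246 and Tbx3 at 0.817 ± 0.157 in soleus, and Tbx4 at 0.174 ± 0.0527 and Tbx2 at 0.172 ± 0.0832 in psoas. Of the 16032 genes with a symbol, 72.3% had a lower mean FPKM than Lbx1, 31.0% than Tbx3, 29.7% than Pitx3, 16.8% than Tbx2, 14.9% than Tbx4, and 8.22% than Pitx1.

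Other T-box genes were measured beside the 6 genes. Tbx15, known as a T-box factor of fast glycolytic fibres, averaged 195 ± 67.3 (SD, n = 3) in EDL, 248 ± 53.7 (SD, n = 3) in psoas, and 141 ± 40.8 (SD, n = 4) in soleus. Soleus and psoas differed by -0.81 on the log2 scale with an adjusted p of 0.0736, and the gene lay above 96.3% of genes in mean FPKM. Tbx18, a mesenchymal and perivascular T-box gene, averaged 1.84 ± 0.145 (SD, n = 3), 2.13 ± 0.793 (SD, n = 3), and 2.94 ± 0.464 (SD, n = 4) in EDL, psoas, and soleus, with adjusted p of at least 0.0988. Of the other T-box genes listed, 4 were measured (Tbx1, Tbx15, Tbx18, and Mga) and 0 were called by edgeR in any comparison, with 0, 2, and 1 at an unadjusted p under 0.05 in psoas vs EDL, soleus vs EDL, and soleus vs psoas. Over all genes, 2.11%, 5.77%, and 5.69% were called and 29.0%, 35.0%, and 28.4% had such a p, so that 0 calls among 4 genes is near the background. Lbx2 and Tbx5 were not among the genes in the count tables, so they have no values here.

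**Figure D3:**
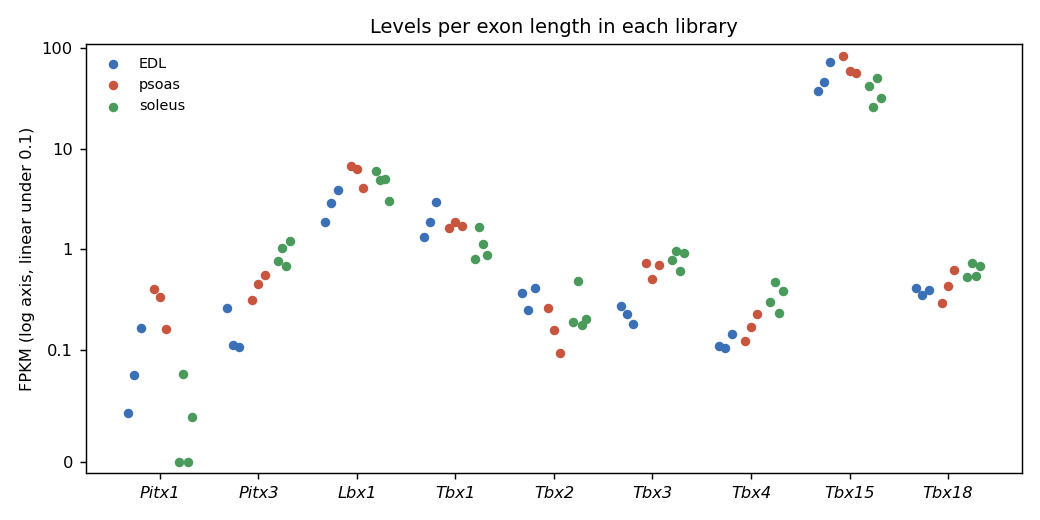
FPKM of the 6 genes and of measured T-box paralogs in each library (points, colored by muscle), on an axis that is logarithmic above 0.1 and linear below it. Tbx15 lies at the top, its means being 52.2 for EDL, 66.1 for psoas, and 37.6 for soleus, and Lbx1 is the highest of the 6 genes. Pitx1 has the lowest mean of the 6 in EDL and soleus, whereas in psoas its mean is above those of Tbx4 and Tbx2.

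Within libraries, the level of Tbx2 per kilobase was above that of Tbx3 in EDL and below it in psoas and soleus. Tbx2 held 57.2%, 52.0%, and 69.2% of their summed values per kilobase in EDL, 26.5%, 23.7%, and 12.2% in psoas, and 19.6%, 33.6%, 22.3%, and 18.2% in soleus. Per kilobase, Tbx2 was therefore the larger part in every EDL library and the smaller part in every psoas and soleus library, soleus replicate 2 included. In EDL this depends on the division by summed exon length, 3626 bases for Tbx2 and 6624 for Tbx3. By reads, Tbx3 exceeded Tbx2 in EDL replicates 1 (78 and 57) and 2 (81 and 48), but not in EDL replicate 3 (22 and 27). The mean share was 59.4% ± 8.81 (SD, n = 3) in EDL, 20.8% ± 7.61 (SD, n = 3) in psoas, and 23.4% ± 7.0 (SD, n = 4) in soleus. It differed by -38.6 points between psoas and EDL (exact two-sided permutation p = 0.1, adjusted p = 0.137 over the 6 share tests computed) and by -36.0 points between soleus and EDL (2 of 35 arrangements in the exact permutation test, adjusted p = 0.137), each the most extreme outcome that the design allows, so that neither can reach 0.05. Between soleus and psoas it differed by 2.62 points (exact permutation p = 0.686).

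**Figure D4:**
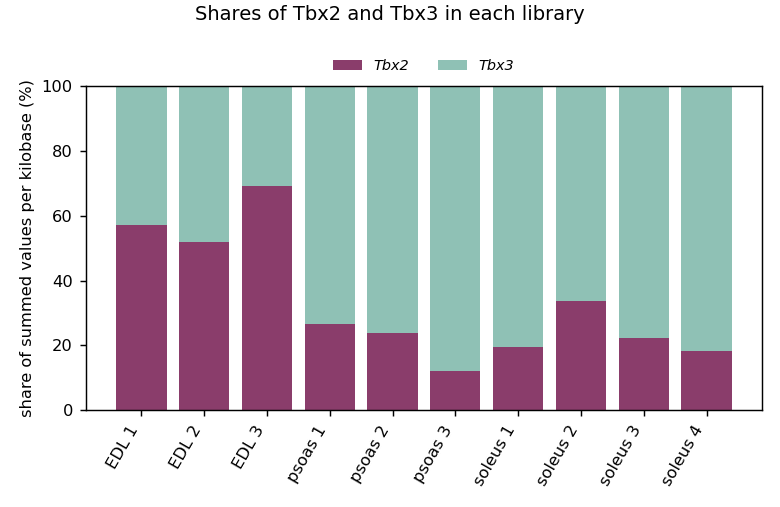
Shares (percent) of Tbx2 and Tbx3 in their summed values per kilobase, 1 bar per library, each bar summing to 100%. The Tbx2 share is above 50% in the 3 EDL libraries and at most 33.6% in the other 7.

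Other patterning genes that are still expressed in adult muscle were called in both directions. Of 36 listed limb and trunk homeobox and patterning genes, 23 were measured. Of these, 0 were called higher and 2 lower in psoas vs EDL, 2 higher and 4 lower in soleus vs EDL, and 1 higher and 2 lower in soleus vs psoas, compared with 2.11%, 5.77%, and 5.69% of all genes in either direction. The median log2 fold changes of the 23 were -0.64, -0.65, and 0.52, compared with 0.01, -0.05, and 0.02 over all genes. The mesoderm homeobox gene Meox2 averaged 17.7 normalized CPM in EDL and 5.48 in psoas (log2 fold change -1.68 ± 0.24, adjusted p = 0.00304). The zinc finger gene Zic1 averaged 2.96 in EDL, 0.327 in psoas, and 0.508 in soleus, lower in psoas (-2.98 ± 0.53, adjusted p = 0.00758) and in soleus (-2.56 ± 0.47, adjusted p = 0.00426) than in EDL. Both therefore had their highest mean in EDL, where Pitx3, Tbx3, and Tbx4 had their lowest.

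The ventral limb ectoderm gene En1 averaged 1.08 normalized CPM in soleus and 0.0761 in EDL (3.71 ± 0.59, adjusted p = 0.00189), and Dach2, a dachshund-family transcription cofactor, averaged 19.0 in soleus and 1.1 in EDL (4.09 ± 0.65, adjusted p = 0.00188). These shared the direction of Pitx3 and Tbx3. Eya4, a transcriptional coactivator of the eyes absent family, was instead lower in soleus, with 6.16 compared to 30.0 in EDL (-2.29 ± 0.37, adjusted p = 0.00225) and 35.3 in psoas (-2.54 ± 0.38, adjusted p = 0.00126). The homeobox gene Six2 had 95 reads in EDL, 25 in psoas, and 1 in soleus, a pooled ratio of 66.2 between EDL and soleus (exact 95% interval 11.6 to 2640, counting error only), and it was called lower in soleus in both comparisons (adjusted p = 0.000655 and 0.00355). The calls named here that the naming rule did not take were Osr1, a connective tissue regulator that fell by 1.74 ± 0.35 on the log2 scale in soleus vs EDL (adjusted p = 0.00653), and Prrx1, a limb mesenchyme homeobox gene that rose by 1.05 ± 0.21 in soleus vs psoas (adjusted p = 0.00731), both chosen after their values were seen. Markers of fibroblasts moved with EDL too, their 7 markers summing to between 1540 and 2990 normalized CPM in EDL, 613 and 968 in psoas, and 655 and 1150 in soleus. Of the 7, 2 were called lower in psoas and 3 lower in soleus than in EDL, compared with 1.57% and 2.18% of all genes. The part of these cells in the differences of connective tissue genes was not tested.

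Markers of satellite cells, the resident stem cells in which several of these factors are also known, had 0 of 5 called by edgeR in every comparison, and summed to between 24.2 and 32.4 normalized CPM in EDL, 11.0 and 13.0 in psoas, and 9.97 and 32.8 in soleus. At an unadjusted p under 0.05, 2, 3, and 2 of the 5 passed in psoas vs EDL, soleus vs EDL, and soleus vs psoas. Over all genes, 29.0%, 35.0%, and 28.4% had such a p, and 2.11%, 5.77%, and 5.69% were called. Most of the sum came from Chodl, which averaged 22.6 normalized CPM in EDL, 4.92 in psoas, and 16.7 in soleus. The other 4 were low. In EDL, psoas, and soleus, Cdh15 averaged 4.48, 5.03, and 5.63, and Pax7 0.548, 0.506, and 1.07. Myf5 averaged 0.589, 0.83, and 1.16, and Calcr 0.382, 0.855, and 1.06. Cdh15, Myf5, and Calcr thus had the order of means of Pitx3, Tbx3, and Tbx4, and Chodl and Pax7 did not. For Calcr, the edgeR log2 fold change in soleus vs EDL was 1.47 ± 0.42 (adjusted p = 0.0319). The median log2 fold change of the 5 was 0.16, 0.96, and 0.49 in the 3 comparisons, compared with 0.01, -0.05, and 0.02 over all genes. The part of satellite cells in the levels of the 6 genes was not tested.

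Pitx3, Tbx3, and Tbx4 followed each other across the 10 libraries. On log2 normalized CPM, Pearson r was 0.922 (Spearman rho 0.903) for Pitx3 and Tbx3, 0.881 (0.915) for Pitx3 and Tbx4, and 0.775 (0.806) for Tbx3 and Tbx4. In contrast, r was -0.341 for Tbx2 and Tbx3 and -0.386 for Pitx1 and Pitx3. These libraries share muscles and depth, so the values describe a common order of the muscles and are given with no p.

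Among the genes with a symbol and a mean of at least 1 CPM, those closest in pattern to Pitx3 by Pearson r were Ctbp2 (0.968), St6galnac4 (0.952), and Tmem8b (0.951), and those closest to Tbx3 were Lmod3 (0.981), Frrs1 (0.974), and Tmem8b (0.97). Ctbp2 encodes a transcriptional corepressor and Lmod3 an actin nucleator of the sarcomere. Tbx4 was most like Krt222 (0.97), Gpat3 (0.963), and Arvcf (0.963), and Lbx1 most like Kif3c (0.961), Fsd2 (0.944), and Dvl1 (0.941). Tbx2 was most like Cald1 (0.954), S1pr2 (0.917), and Copz2 (0.907), Cald1 encoding the actin-binding caldesmon of smooth muscle and other contractile cells. Pitx1 was most like Enox2 (0.98), 2610002M06Rik (0.959), and Rbpms (0.945), a ranking that rests on counts at or near 0 in soleus. When ranked by Spearman rho, the number of these 3 genes that stayed was 2 for Lbx1, 1 for Pitx1, Pitx3 (Tmem8b), and Tbx2, and 0 for Tbx3 and Tbx4, genes with equal rho sharing a rank, so that most of these names depend on the measure of likeness.

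**Figure D5:**
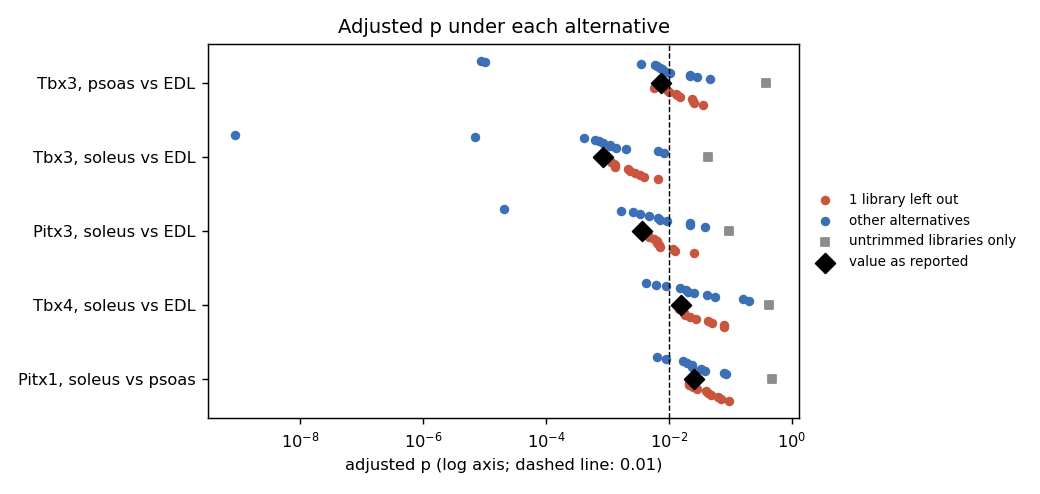
Adjusted p of 5 differences on a log axis as reported (diamonds), with 1 library left out (red), under other alternatives (blue), and within the untrimmed libraries alone (grey squares); the dashed line is the threshold of 0.01. Tbx3 in soleus vs EDL crosses the line only among the untrimmed libraries (0.0431), whereas Tbx3 in psoas vs EDL, Pitx3 in soleus vs EDL, Tbx4 in soleus vs EDL, and Pitx1 in soleus vs psoas have alternatives on both sides of it.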

How the data were processed

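Muscle RNA from 3 EDL, 3 psoas, and 4 soleus samples was sequenced as stranded total RNA libraries. The authors used Trimmomatic 0.32 on low-quality libraries and TopHat2 2.1.1 with GRCm38.p4, counted reads per gene in R, dropped genes that lacked 10 reads in 3 or more samples, and deposited the raw counts. All 16112 genes met this filter. The handling of multiply aligned reads is not given in the sources used here. Total counts ranged from 12737971 to 50431713, which limits precision for genes with few reads.

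Muscles were taken from the sample labels. Genes were compared with edgeR 4.0.16 (quasi-likelihood test, TMM, 1 fit over 10 libraries, no covariate), with Benjamini-Hochberg adjustment over all genes, and called at an adjusted p below 0.01 with more than a 2-fold difference. The standard error is the log2 fold change over the square root of F. DESeq2 1.42.0, limma 3.58.1, R 4.3.3, and Python 3.11.15 were also used, and the scripts were tested on simulated data. FPKM and the Tbx2 share used summed exon lengths of GENCODE M21, and shares were compared by exact two-sided permutation tests. Promoter windows came from RefSeq, whose table held 2 of the 6 genes.

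The members, lists, and tests were chosen with earlier results of these data known. Besides the 6 genes, the text names up to 6 called genes per list by adjusted p, paralogs of the same family, the 3 genes most correlated with each member, measured genes within 50 kb, and markers that move with a member. The results of 1 gene that this rule takes are not reported here. Same-numbered EDL and psoas libraries deviated together (r = 0.263, 0.106, and 0.504), so the numbers were taken to pair these muscles, and those of soleus were not. This pairing is at most a hint from the data, since EDL 1 with psoas 2 (0.297) and EDL 2 with psoas 1 (0.277) correlated similarly. Same-numbered EDL and psoas libraries also have the same age (42, 54, and 44 days), but an equal age does not identify an animal. EDL and psoas libraries that differed in trimming correlated negatively (EDL 1 and 2 with psoas 3, -0.448 and -0.307, and EDL 3 with psoas 1 and 2, -0.354 and -0.277). The sign of r thus followed trimming. No same-numbered EDL and psoas libraries share an animal code. Shared codes are those of EDL 3 and soleus 2, psoas 1 and soleus 1, and psoas 3 and soleus 4. Alternatives were other tests, normalizations, filters, thresholds, covariates, and depths, and fits without each library. Fits of trimmed or untrimmed libraries alone, and the replicate block in EDL and psoas only, were added after seeing the data. P-values weigh differences against the spread between these libraries. The main fit treated the 10 libraries as independent, although 3 animal codes occur in 2 libraries.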

Additional observations from a re-analysis of the deposited data

Results flagged for a closer look

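Soleus was the only muscle with enough libraries (4) to look for an outlying library, and 8 sets of soleus values were examined, of which chance flags about 1 in 20. The level of Tbx2 in soleus replicate 2 (1.76 normalized CPM) stood far from the other 3 libraries (0.638 to 0.739). Its gap to the nearest library was 0.91 of the range of the 4 libraries, above Dixon's critical value for 4 samples.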

How the results depend on the processing

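Of the alternatives to the reported values, 559 were labeled unchanged, 22 lost a call, 7 gained one, 66 moved a count or a list of like genes, and 4 turned the direction. Unchanged means the same direction and side of the threshold for single genes and shares, a similar size for counts, and most names kept for lists of like genes. The 559 include share tests that cannot reach 0.05, and the looser threshold reuses the main fit, so this number is no measure of stability. In psoas vs EDL, the 340 genes called became 1095 with DESeq2, 1294 with DESeq2 and a trimming covariate, 605 with that covariate in edgeR, 865 with sex as a covariate, 153 with the 2 muscles alone, 225 after thinning, 1233 at an adjusted p under 0.05, 159 among trimmed and 0 among untrimmed libraries, and 61 to 963 without 1 library. The 1 member called became 0 with upper-quartile normalization, the 2 muscles alone, and the trimmed or untrimmed libraries, and 0 to 1 without 1 library. In soleus vs EDL, the 929 genes became 1520 with DESeq2, 371 with the trimming covariate, 1853 at the looser threshold, 48 among untrimmed libraries, and 385 to 1511 without 1 library. The 2 members became 1 with a mean of at least 1 CPM (which leaves Pitx3 untested), the trimming covariate, or thinning, 0 among untrimmed libraries, and 1 to 2 without 1 library. In soleus vs psoas, the 917 genes became 1382 with DESeq2, 566 with the trimming covariate, 1563 at the looser threshold, 33 among untrimmed libraries, and 493 to 964 without 1 library. The 0 members became 1 (Pitx1) with DESeq2, the animal as a random effect, and the looser threshold. Among untrimmed libraries, Pitx1 turned to -0.08 in psoas vs EDL and Lbx1 to 0.2 in soleus vs psoas. Without 1 library, the Tbx2 share in soleus vs psoas ranged from -1.7 to 5.5 points. The cause of these changes was not tested, except that fits within trimmed or untrimmed libraries hold fewer samples.

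With the replicate block, 146, 586, and 539 genes were called in the 3 comparisons, with 0 members in psoas vs EDL (also with the replicate block in EDL and psoas only), where Tbx3 was 1.5 (adjusted p = 0.0215), and 1 in soleus vs EDL, where Pitx3 was 2.34 (adjusted p = 0.0223). This block covers all 10 libraries, so it also groups soleus libraries by number, although the soleus numbers were not taken as pairs. The block changed no other member's call. Depth limits Pitx1, Tbx2, Pitx3, and Tbx4 most, with fewer than 10 reads in 7, 3, 2, and 2 libraries.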

Other observations

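Of 16 listed targets and partners of these factors, 12 were measured and 0 were called by edgeR in any comparison, with 1, 4, and 4 at an unadjusted p under 0.05 in psoas vs EDL, soleus vs EDL, and soleus vs psoas. Over all genes, 2.11%, 5.77%, and 5.69% were called and 29.0%, 35.0%, and 28.4% had such a p. The 0 calls and the counts of 4 are thus near the background, and the count of 1 in psoas vs EDL is below it. Fgf10, a limb bud growth factor gene downstream of T-box factors, had 7 reads in EDL, 13 in psoas, and 28 in soleus (0.071, 0.144, and 0.333 mean normalized CPM), with an adjusted p of 0.0589 in soleus vs EDL. Cdkn1a, a cell cycle inhibitor gene repressed by Tbx2, averaged 0.658 normalized CPM in EDL, 0.598 in psoas, and 1.36 in soleus, with adjusted p of 0.106 in soleus vs EDL and 0.0835 in soleus vs psoas. Hgf and Wnt2b went the other way in soleus vs EDL, with log2 fold changes of -1.09 and -1.27 (edgeR adjusted p = 0.11 and 0.108). The lowest adjusted p of the list was that of Cxcl12, 0.046 in soleus vs psoas (log2 fold change 0.79). The naming rule takes none of the targets named here.

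The measured genes within 50 kb of the 6 genes, other than Tbx2 and Tbx4 themselves, were Pcbd2 (48221 bases from Pitx1), Gbf1 (4183 bases from Pitx3), and Bcas3 (6493 bases from Tbx2), and none was called in any comparison. The lowest adjusted p among these 3 was that of Gbf1 in psoas vs EDL, 0.0479 with a log2 fold change of 0.64 ± 0.18 (SE).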
